A study of Daphnia magna with 80 samples.

Results

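The 200 genes of smallest spread across sex and age in whole water fleas (Daphnia magna, strain Bham2) were described. They were chosen by the standard deviation (SD) of log2 CPM, which is CPM (counts scaled to a common library size by TMM) with a prior count of 2, over 76 libraries. The choice was made among the 4724 genes with a median of at least 20 CPM, of 26646 gene IDs in the count table. Because every library entered the choice, a small spread, a small sex difference and a small age change of the members are properties of the selection, and the counts and fits given for them are descriptions.

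The samples were whole animals of 1 strain fed Chlorella, males in 37 libraries and females, frozen with an empty brood pouch, in 39 libraries. Males were frozen at 8, 10, 15, 18, 20, 23, 25, 28, 30, 33, 35, 38 and 40 days, with 3 libraries in 11 of these groups and 2 in the other 2 groups. Females were frozen at 10 days and every 5 days after that up to 80 days, with 3 libraries in 10 groups, 2 in 4 groups and 1 at 70 days. No treatment, allele or mutation distinguishes the groups. The labels do not say whether replicate libraries came from separate cultures, so the p-values measure the spread between these libraries.

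In Daphnia the mother's surroundings, and not sex chromosomes, set the sex of a clonal brood, so sons and daughters of a strain can carry the same genome. Males and females differ strongly in size, reproductive tissue and transcriptome, and the animals keep moulting with age. Transcripts that keep nearly the same share of the RNA in both sexes and at all ages are sought as reference genes, against which quantitative PCR measurements are expressed. Synthetic spike-in transcripts added to the RNA are another reference, one that does not depend on the animal's own genes. The files give gene IDs without names, and 0 IDs were found in the available reference table, so no gene name or function is given for any member and no known reference gene could be looked up.

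Gene counts ranged from 1599627 to 33480868 in male libraries (median 19608955) and from 2242215 to 27789716 in female libraries (median 19077345). The 3 shallowest libraries, 1 of males at 33 days and 2 of females at 65 and 75 days, held 1599627, 5058275 and 2242215 gene counts, and each other library held at least 8901627. A block of 7 abundant genes that move together accounted for between 1.03% and 75.4% of a library's counts (median 17%), and results that depend on it or on the shallow libraries are given with and without them.

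The SD of log2 CPM of the members ran from 0.120 to 0.221 (median 0.203), whereas over all 4724 eligible genes its median was 0.450, with quartiles of 0.322 and 0.742 and a maximum of 4.80. No gap in spread set the members apart. The genes at the last 2 ranks inside had SDs of 0.2204 and 0.2205, and the first 2 outside had 0.2205 and 0.2208. The SD that counting alone would give had a median of 0.0605, or 9.55% of a member's variance (0.634% to 19.8%), against 1.90% for the eligible genes.

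The members were genes of moderate level. Their median level was 41.5 CPM, close to the 39.7 CPM of the eligible genes, and the lowest and highest members, APZ42_034248 and APZ42_018910, had medians of 20.7 and 514.9 CPM. Members made up 6.26% of the eligible genes between 30 and 50 CPM (86 of 1373) and 4.98% of those between 50 and 100 CPM (47 of 943). They made up 2.95% of the genes between 20 and 30 CPM (45 of 1524), 4.25% of those between 100 and 200 CPM (19 of 447) and 0.686% of those at 200 CPM or more (3 of 437). Together the 200 members accounted for 0.38% to 1.5% of a library's counts (median 1.22%), where all eligible genes accounted for 87.8% to 97.1%.

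**Figure D1:**
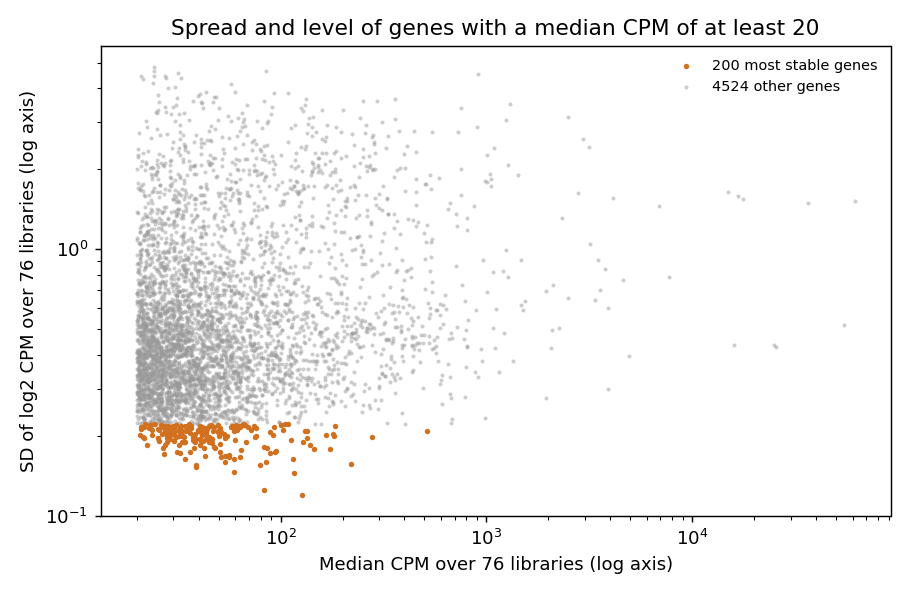
SD of log2 CPM over 76 libraries against median CPM, both on log axes, for the 200 members (orange) and the 4524 other genes with a median of at least 20 CPM (grey). The members lie at the lower edge with SDs of 0.120 to 0.221, most of them under 100 CPM, and 3 of them are at 200 CPM or more.

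A small SD left an appreciable range. Between its lowest and its highest library a member differed by a median of 2.05-fold (1.49-fold to 3.09-fold), against a median of 4.89-fold for the eligible genes. The smallest range was that of APZ42_013390, the gene with the second smallest SD of all (0.12), which ran from 68.6 to 102.4 CPM. The largest was that of APZ42_024398, from 22.5 CPM in a female library of 60 days to 69.7 CPM in the shallow female library of 75 days. Both were picked after their values were seen. The means of all 28 sex-and-age groups were within 0.25 log2 units of the gene's overall mean for 18 members and within 0.5 for 190 members. For 40 members no library deviated by over 0.5, and no member had more than 4 such libraries, whereas the eligible genes had a median of 17.

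Spread was of similar size in both sexes. The SD within males had a median of 0.182 over the members and that within females 0.195, and it was smaller in males for 125 of 200 members; over the eligible genes the medians were 0.327 in males and 0.417 in females. Replicates of the same sex and age differed with a median SD of 0.169, against 0.281 for the eligible genes. Members did not form a block that moves together: the median Pearson correlation between pairs of members over the 76 libraries was 0.0621 (5th to 95th percentile -0.29 to 0.409), and for pairs of eligible genes it was 0.0126 (-0.568 to 0.618). These correlations share libraries and scaling and are given as descriptions.

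The libraries in which members stood farthest from their means were the shallowest ones. The median absolute deviation of the 200 members was 0.215, 0.238 and 0.260 log2 units in the 3 shallowest libraries, and between 0.0839 and 0.193 in the other 73. Of the 400 lowest and highest values of the members, 89 fell in these 3 libraries and concerned 86 members. The female libraries of 75 and 65 days held 36 and 33 of them, and the male library of 33 days held 20. Among deeper libraries, 1 of females at 35 days and 1 of males at 15 days held 22 each. Among group means, the largest deviation was at 65 days in females for 35 members (2 libraries, of which 1 is shallow) and at 70 days in females for 24 members (1 library). The share of depth in these deviations was not tested.

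**Figure D2:**
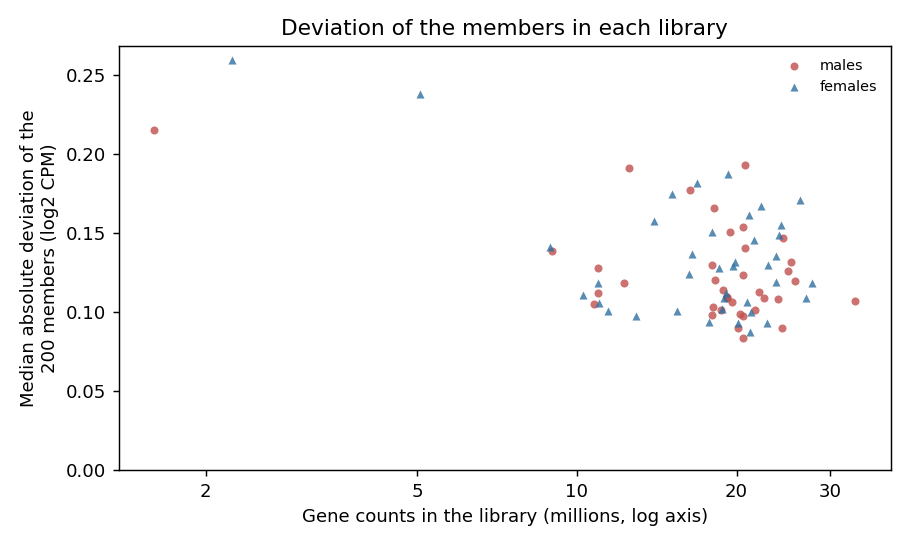
Median absolute deviation of the 200 members from their own means (log2 CPM) in each of 37 male (red circles) and 39 female (blue triangles) libraries, against gene counts on a log axis. The 3 shallowest libraries lie between 0.215 and 0.260, above all others, which reach 0.193.

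Sex differences among the members were small. Quasi-likelihood tests of edgeR across all genes (adjusted p under 0.05, age in the model) called 40 of 200 members higher in males (20%, against 34% of all 17443 genes tested) and 56 lower in males (28%, against 34.1%). Choosing on a small SD holds these shares down, so nothing is read from the difference. The split of directions rested on the scaling: with relative log expression library sizes, which moved the median male change of all genes by 0.0619 log2 units, 65 members were higher and 37 lower in males, and with spike-in library sizes, which moved it by -0.197, 0 were higher and 64 lower. The size of the male change had a median of 0.106 log2 units over the members and 0.427 over the eligible genes. It was at most 0.05 for 53 members, over 0.05 to 0.1 for 43, over 0.1 to 0.2 for 67 and over 0.2 for 37. The 95% interval of the change lay within 0.25 on either side of 0 for 133 members. The 96 called members had changes between 0.0987 and 0.359 in size (median 0.176). Taken without age in the model, sex accounted for a median of 4.79% of a member's sum of squares, against 18.0% for an eligible gene. Females were sampled up to 80 days and males up to 40 days, so this share can hold age as well.

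The largest sex differences that passed show how far a member could still depart from equality. APZ42_020051 had a lowest, median and highest level of 42.2, 53.9 and 64.0 CPM in males, against 50.6, 67.5 and 82.3 CPM in females. The ranges of the sexes overlapped although the gene was lower in males by a fitted log2 change of -0.36 ± 0.05 (SE, edgeR adjusted p = 1.13e-10), and it was called lower under all 13 other settings tried for sex. APZ42_015469 had 17.0, 23.3 and 29.7 CPM in males, against 15.4, 19.7 and 26.5 CPM in females. Its fitted male change was 0.31 ± 0.05 (SE, edgeR adjusted p = 3.82e-08), and with spike-in library sizes it was 0.0949 (adjusted p = 0.502). Whole animals were sequenced, so fewer cells of a type and less RNA per cell cannot be told apart in any of these values.

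Age changes were fitted within each sex as a slope and expressed over the whole age range sampled. In males, 37 members rose (18.5%, against 15.2% of all 16606 genes tested) and 15 fell (7.5%, against 17.5%) between 8 and 40 days. The median size of the change over these days was 0.148 log2 units for members and 0.333 for eligible genes, and 1 member changed by over 0.5. Called members changed by 0.211 to 0.624 (median 0.331). With log2 library size as a covariate 22 rose and 27 fell, and with spike-in library sizes edgeR called 0 members (2 at an unadjusted p under 0.05; DESeq2 with its own size factors called 60), where 13.4% of all genes tested were called (29.6% by DESeq2).

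APZ42_032178 had the largest rise in males. Its level was 153.5, 160.8 and 174.7 CPM in the 3 male libraries of 40 days, against 124.8, 116.2 and 111.1 CPM in those of 8 days. All 3 older libraries were above all 3 young ones, and the slope was 0.20 ± 0.03 log2 units per 10 days (SE, edgeR adjusted p = 3.02e-07), or 0.62 over the range. With spike-in library sizes the slope was 0.17 (adjusted p = 0.195). The gene also rose in females, with a slope of 0.04 ± 0.01 per 10 days (SE, edgeR adjusted p = 0.0125). It had 144.7, 160.2 and 144.6 CPM in females of 80 days, against 160.6, 141.4 and 158.6 CPM in females of 10 days, and these groups overlapped. Females of 15 and 25 days averaged 121.6 ± 5.5 and 117.1 ± 1.4 CPM (SD, n = 3 each), below all 3 libraries of 80 days. APZ42_026100 had the largest fall in males. It had 54.5, 52.0 and 57.5 CPM at 40 days, against 76.97, 71.99 and 70.2 CPM at 8 days, without overlap, with a slope of -0.14 ± 0.03 per 10 days (SE, edgeR adjusted p = 6.91e-05). The call was lost with spike-in library sizes (slope -0.18, adjusted p = 0.123) and among the 13 male libraries of the cluster with a higher ratio of the spike-ins SIRV7 and SIRV1 (28 libraries in all; slope -0.13, adjusted p = 0.0992). Male means from 20 to 38 days lay between 45.0 ± 4.8 CPM at 38 days (SD, n = 3) and 57.5 ± 1.1 CPM at 25 days (SD, n = 2), without a steady order.

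In females, 22 members rose (11%, against 21.8% of all 16300 genes tested) and 10 fell (5%, against 20.1%) between 10 and 80 days. The split of directions changed with the processing: 9 rose and 21 fell without a filter on low counts, 14 rose and 19 fell without the 7 abundant genes, and 16 rose and 18 fell without the 3 shallowest libraries. On the spike-in scale none of the 200 rose and 198 fell, where 56.8% of all genes tested were called in either direction. This scale moved the median slope of all genes by -0.15 per 10 days. The median size of the change was 0.15 log2 units for members and 0.450 for eligible genes, and 1 member changed by over 0.5. Called members changed by 0.24 to 0.524 (median 0.321). Within 10 to 40 days alone 4 members were called by edgeR, where 7.09% of all genes tested were called. Within 45 to 80 days alone 0 were called (9 at an unadjusted p under 0.05), where 1 gene in 16194 was called, so this count says nothing of the members.

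APZ42_021746 had the largest rise in females. It had 57.9, 62.3 and 47.1 CPM in the 3 female libraries of 80 days, against 42.4, 42.7 and 38.3 CPM in those of 10 days. The groups did not overlap, and the slope was 0.07 ± 0.01 log2 units per 10 days (SE, edgeR adjusted p = 4.22e-05), or 0.52 over the range; with spike-in library sizes it was -0.08 (adjusted p = 0.0791). The gene also passed in males, where it averaged 55.0 ± 3.5 CPM at 40 days and 42.7 ± 2.7 CPM at 8 days (SD, n = 3 each). APZ42_029855 had the largest fall in females. It averaged 32.4 ± 3.6 CPM at 80 days, with 36.1, 28.9 and 32.2 CPM in the 3 libraries, against 39.5 ± 2.8 CPM at 10 days (SD, n = 3 each). Its lowest mean was not at the end of the range, since females of 40 days averaged 26.2 ± 1.6 CPM (SD, n = 2), and its slope was -0.05 ± 0.01 per 10 days (SE, edgeR adjusted p = 0.00299). With spike-in library sizes the slope was -0.20 (adjusted p = 3.83e-05). The gene did not pass in the higher cluster of the spike-in ratio (adjusted p = 0.403), at 10 to 40 days (0.172) or at 45 to 80 days (0.786). APZ42_021746 did not pass in these 3 subsets either (adjusted p = 0.717, 0.366 and 0.673).

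Slopes differed between the sexes for 29 members. The male slope was above the female one for 18 (9%, against 4.54% of all 17706 genes tested). It was below for 11 (5.5%, against 7.53%). Male slopes cover 8 to 40 days and female slopes 10 to 80 days, so sex and age window cannot be told apart here. The interaction was not fitted on shared ages alone. Without the female library of 30 days that is replicate 3 the number of members called was 44. Without the 3 shallowest libraries it was 49, with 44 above and 5 below, where 15.2% of all genes tested were called. APZ42_032178 had a male slope that was 0.15 ± 0.03 per 10 days above the female one (SE, edgeR adjusted p = 9.15e-05), and APZ42_026100 one that was 0.16 ± 0.03 below it (log2 difference -0.164, adjusted p = 4.76e-05). APZ42_022875, the member of largest SD (0.2205), had 86.7, 110.9 and 137.8 CPM as its lowest, median and highest level in males, against 60.0, 106.7 and 178.7 CPM in females. It rose in males (change 0.252, adjusted p = 0.0309) and fell in females (change -0.342, adjusted p = 0.0248, edgeR); it was the only member called in opposite directions in the sexes (0.5%, against 1.34% of the 15734 genes tested in both). Of the others, 7 members rose in both sexes (3.5%, against 9.09%) and 1 fell in both (0.5%, against 9%). No call in any of these fits was made for 70 of the 200 members and for 619 of the 4724 eligible genes.

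**Figure D3:**
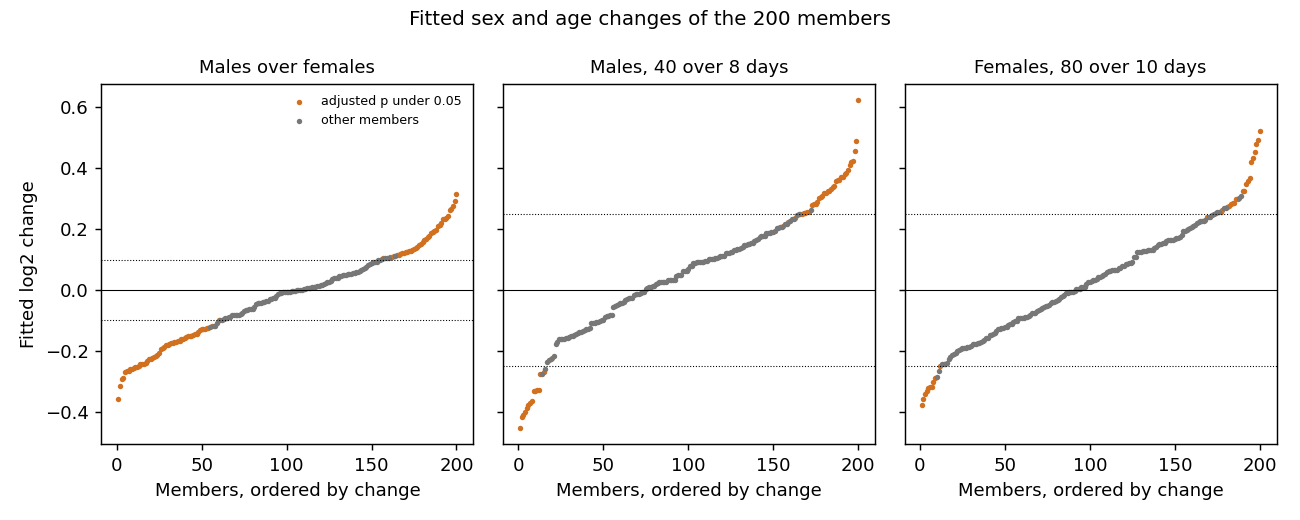
Fitted log2 change of each of the 200 members, ordered by size, for males over females, for males of 40 over 8 days and for females of 80 over 10 days; orange points have an edgeR adjusted p under 0.05 and dotted lines mark the limits used for reference genes (0.1 for sex, 0.25 for age). The largest changes are -0.359 for sex, 0.624 for male age and 0.524 for female age.

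A member was taken as a possible reference when 4 limits held: a fitted male change of at most 0.1 log2 units, a change of at most 0.25 over the age range in males and in females, and a range of at most 1 over the libraries. The sex limit held for 96 members, the male age limit for 149, the female age limit for 160 and the range limit for 84. All 4 held for 25 members, or 12.5%. Of the 4524 eligible genes outside the set none met all 4, since the rule left only 4 with so small a range; 117 met the sex and age limits. Leaving out the 3 shallowest libraries raised the number to 45, of which 23 were among the 25. With relative log expression scaling 27 genes met the limits and 14 of them were among the 25, with stricter limits on sex (0.05) and age 5 did, and with spike-in library sizes 0 did.

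The 4 genes of smallest SD among the 25 had median levels from 38.6 to 122.8 CPM in females. APZ42_015882, first of all eligible genes in SD (0.120), had a lowest, median and highest level of 113.9, 130.9 and 155.8 CPM in males, against 101.2, 122.8 and 144.8 CPM in females. Its fitted male change was 0.05 ± 0.04 (SE; 95% interval -0.0206 to 0.127), its change over the age range was -0.13 in males and -0.0749 in females, and its whole range was 0.622 log2 units. It averaged 126.8 ± 3.9 CPM in males of 40 days, 141.9 ± 11.9 CPM in males of 8 days, 123.7 ± 4.6 CPM in females of 80 days and 130.3 ± 3.4 CPM in females of 10 days (SD, n = 3 each). The ranges of the sexes overlapped over most of their extent.

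APZ42_017914, with the next smallest SD (0.145), had 91.7, 117.7 and 127.4 CPM in males, against 82.8, 112.8 and 129.6 CPM in females. Its male change was 0.07 ± 0.04 (SE), with age changes of 0.0344 in males and 0.2 in females. Its SD fell to 0.110 when the shallow female library of 75 days, its lowest, was left out. Without that library its change in females was 0.252, just over the limit of 0.25. Without replicate 1 of males at 33 days or replicate 3 of females at 50 days its male change was 0.106 and 0.105, and without replicate 3 of males at 23 days it was also just over the limit of 0.1. The other 3 genes met the limits without any 1 library. The female means of APZ42_017914 were 95.04 CPM at 10 days and 94.99 CPM at 15 days. Later means lay between 100.4 CPM at 60 days (n = 2) and 127.4 CPM at 55 days (n = 3), without a steady order. Single later libraries were as low as 90.13 CPM at 60 days and 82.84 CPM at 75 days.

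APZ42_031264, with an SD of 0.147, had 46.2, 61.2 and 72.5 CPM in males, against 49.1, 59.1 and 72.5 CPM in females. Its fitted changes were 0.000624 ± 0.0433 for sex (SE), 0.0488 for age in males and -0.0283 for age in females, and it alone of the 4 also met the stricter limits. APZ42_011833, with an SD of 0.153, had 30.5, 38.8 and 46.7 CPM in males, against 27.6, 38.6 and 55.0 CPM in females. Its male change was -0.06 ± 0.04 (SE), its age changes were 0.13 in males and -0.157 in females, and its range of 0.992 log2 units was just inside the limit.

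**Figure D4:**
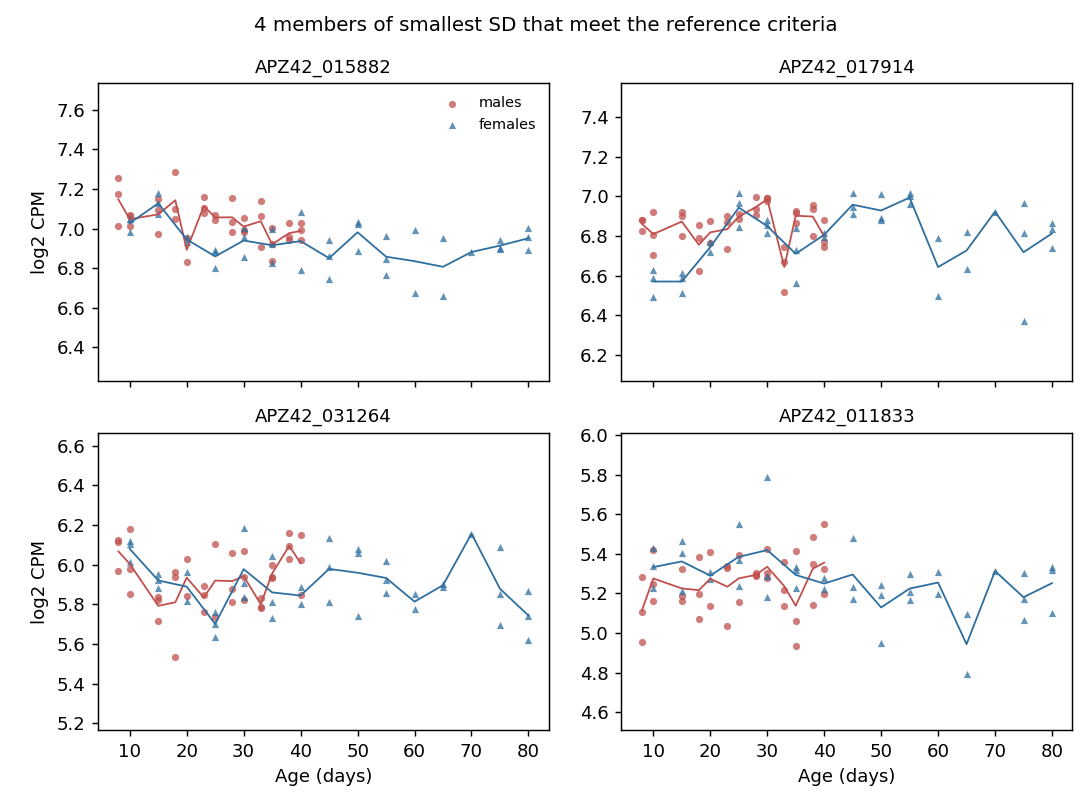
Log2 CPM against age in days for the 4 members of smallest SD that met the reference limits; red circles are male libraries, blue triangles female libraries, and lines join the means of each age group. Panels share a span of log2 units; APZ42_015882 ranges over 0.622 and APZ42_011833 over 0.992.

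With spike-in library sizes none of the 4 met the limits. Their changes in females from 10 to 80 days were then -1.13, -0.829, -1.12 and -1.2 in the order of their SDs. The first 2 also missed the limits under relative log expression. Under relative log expression the male change was 0.116 for APZ42_015882 (edgeR adjusted p = 0.00381) and 0.135 for APZ42_017914 (adjusted p = 0.00159), both over the limit of 0.1. It was 0.062 for APZ42_031264 and -0.000172 for APZ42_011833, which stayed within all limits under this scaling. With the scaling reported, none of the 4 passed the test for sex (edgeR adjusted p = 0.198, 0.0708, 0.990 and 0.213 in the order of their SDs), and limma-voom with quality weights gave 0.0249 and 0.0348 for the first 2. In the authors' deposited table of a sex effect the same 2 genes passed, with adjusted p-values of 0.00881 and 0.0192. Their log2 changes were -0.197 and -0.194, and the headers do not state the direction. There APZ42_015469, higher in males here, had -0.438, and APZ42_020051, lower in males here, had 0.541. APZ42_017914 also passed in the authors' deposited table of an age effect (adjusted p = 0.00547), and APZ42_031264 and APZ42_011833 passed in neither. The headers do not state the model behind either effect. Neither need therefore be the same measure as the sex effect at a given age or the age slopes fitted here. APZ42_013390, second of all genes in SD, met the sex, female age and range limits and missed the male age limit, with a change of 0.279 between 8 and 40 days.

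Ratios between the 4 genes, which need no library size at all, had SDs of 0.181 to 0.203 log2 units over the 76 libraries and ranges of 0.834 to 1.14. Over all pairs of members, the mean SD of a gene's log2 ratio to the others ran from 0.228, for APZ42_015882, to 0.303 (median 0.274). Means of several members had smaller SDs on the TMM scale than single members, without a steady gain. The mean log2 CPM of the 2 members of smallest SD had an SD of 0.0867 and was 0.079 higher in males. The SD was 0.0706 for the first 3, 0.067 for the first 5 and 0.0682 for the first 10. The range was 0.302 for the first 5 and 0.386 for the first 10. For all 200 the SD was 0.0505. From the genes that met the limits, the mean of 4 had an SD of 0.0779 and the mean of all 25 had 0.0611. These SDs were computed on the libraries and the TMM scaling that chose the members, so they are no test of a combined reference.

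The members also served to set library sizes. A scaling factor from the members alone differed from the TMM factor by -0.137 to 0.114 log2 units (SD 0.050) over the libraries. The members were chosen for a small SD after TMM scaling of the same libraries, so the closeness of the factors follows from the choice. The spike-in RNA gave another picture. The mean log2 share of the members, less the log2 share of the summed spike-ins, had an SD of 0.529 over the 76 libraries. Each share was relative to a library's gene counts and centred on its mean over libraries. A negative value therefore lies below the average library, not below the spike-ins. The medians were -0.0717 in males of 10 to 40 days, 0.224 in females of 10 to 40 days and -0.235 in females of 45 to 80 days. The median SD of the members was 0.203 with TMM, 0.199 with relative log expression, 0.407 with no scaling factor and 0.562 with spike-in library sizes. The first of these values is the one that chose the members. Whether the amount of RNA per sample or of spike-in added varied was not tested.

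**Figure D5:**
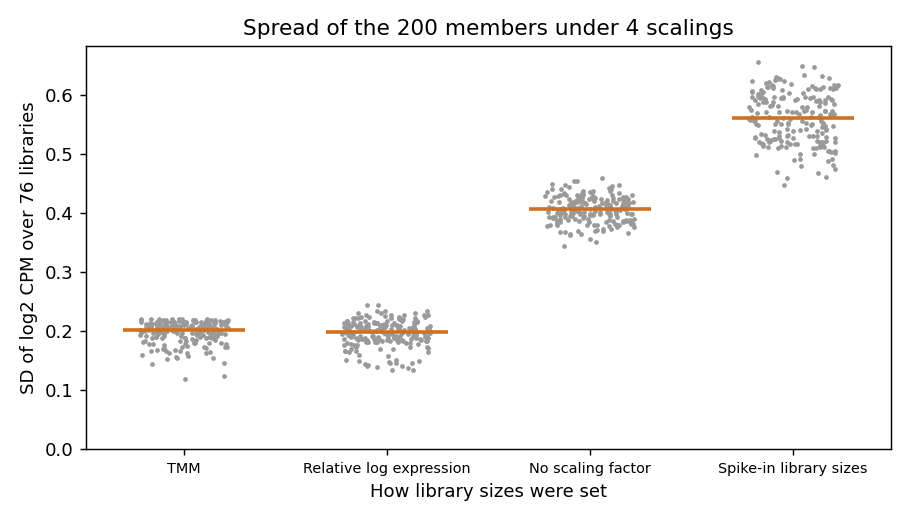
SD of log2 CPM over 76 libraries for each of the 200 members under 4 ways of setting library sizes; points are members and orange lines medians. Medians are 0.203 with TMM, 0.199 with relative log expression, 0.407 with no scaling factor and 0.562 with spike-in library sizes.

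Membership depended on how stability was measured. By the same rule with relative log expression, 161 of the 200 were chosen again; with no scaling factor 107 were, and with spike-in library sizes 26 were. A rule based on the median absolute deviation shared 106 members, and a rule based on the SD between replicates of the same sex and age shared 61. Lists made from males alone and from females alone shared 64 genes, or 32% of each list, and 48 of the 64 were members; 57 members were in neither list. In all 76 lists made without 1 library, 137 members were present.

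In the authors' deposited table of an age effect, 56 of the 200 members passed an adjusted p of 0.05 (28%, against 42.5% of all genes with a value), 34 with a positive and 22 with a negative change. In the authors' deposited table of a sex effect 66 passed (33%, against 43.3%), 33 in each direction, with a median size of 0.15 log2 units over the members and 0.517 over the eligible genes. For the interaction, 33 members passed in the authors' deposited table (16.5%, against 15.3%), 21 positive and 12 negative. The headers do not say which sex is on top. For the sex effect APZ42_020051, lower in males here, was positive (0.541) and APZ42_015469, higher in males here, was negative (-0.438). The libraries and the models behind these tables are not stated, so they are no separate evidence on the members. In the age table APZ42_021746 had 0.0074 and APZ42_029855 -0.0054 with age in days. Their slopes in females here were 0.07 and -0.05 per 10 days. APZ42_026100, which fell in males here (-0.14 per 10 days), had 0.0018 there. That age effect need therefore not be one over both sexes.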

How the data were processed

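The authors deposited whole-number counts in 80 columns, with 26646 gene IDs and 7 SIRV rows (synthetic spike-in RNA). Of these, 3 columns belong to samples marked as mislabelled and excluded, which entered no comparison, and 2 technical runs of 1 male sample of 10 days were summed, leaving 76 libraries. The deposited tables of age, sex and interaction effects hold, per the file headers, a mean of normalised counts (a signal), a log2 change with its error, a score that is the change over its error, and a p-value with its adjusted value. The submitters' processing notes name TopHat2 2.1.1 and DESeq2 1.20. Which counter, strand setting, genome build and gene models were used is not stated in the labels or headers, which leaves uncertain the counts of genes that overlap or have a near-identical copy.

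Spike-in rows entered neither library sizes nor tests, except where spike-in library sizes are named. Tests used edgeR 4.0.16 under R 4.3.3 (TMM, filterByExpr, quasi-likelihood test, Benjamini-Hochberg adjustment over all genes tested, adjusted p under 0.05). The sex effect was fitted with age in the model, age was fitted within each sex, and the interaction with a product of both. DESeq2 1.42.0, limma 3.58.1 (voom with quality weights), other scalings and rules, spike-in ratio clusters, age ranges and leaving out each library were the alternatives. The code of the tests was run on simulated counts with known changes, drawn independently per library with the dispersion estimated by edgeR. The simulated counts held no shifting block of abundant genes and no scaling difference, so they are no check of those. Figures used matplotlib 3.10.9.

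The members, limits and alternatives were chosen with earlier results of these data known. Genes were named by rule: the 4 of smallest SD that met the reference limits, those of highest and lowest level, the 2 of largest SD (the other is APZ42_015787), and per fit the called members of largest positive and negative change. The list of classical reference genes in the plan could not be looked up without names.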

Additional observations from a re-analysis of the deposited data

Results flagged for a closer look

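The age slope of 29 members differed between males and females in the interaction test of edgeR, at an adjusted p under 0.05. That is 14.5% of the members, against 17.4% of the eligible genes and 12.1% of all genes tested. For APZ42_032178 the male minus female slope was 0.1525 log2 units per 10 days, and for APZ42_026100 it was -0.164 per 10 days. The sign of both differences was kept in each of the 76 fits that left out 1 library. With spike-in library sizes they were 0.2884 (adjusted p = 0.0561) and -0.04198 (adjusted p = 0.784). The male slopes were fitted over 8 to 40 days and the female slopes over 10 to 80 days. Sex and age window therefore cannot be told apart in these differences. No explanation was tested for any of them.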

How the results depend on the processing

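Of the 200 members, the rule kept 107 with no scaling factor, 26 with spike-in library sizes, 69 with a floor of 50 CPM (all 69 members at or above that floor), 106 by the median absolute deviation, 61 by the SD within sex-and-age groups, 130 by the mean of the SDs of the sexes, 113 in females alone, 78 in males alone, 133 at 10 to 40 days and 95 with replicate 1 alone. Leaving out 1 library or 1 replicate number kept 141 to 198. Members called for sex numbered 60 in the cluster of 28 libraries with the higher SIRV7 to SIRV1 ratio. There 56.5% of all genes tested were called. Those called for age in males numbered 0 with spike-in library sizes, 21 in the lower and 29 in the higher ratio cluster. Of all genes tested 13.4%, 19% and 19.5% were called in these fits. Those called for age in females numbered 198 with spike-in library sizes and 52 by limma-voom, where 56.8% and 50.5% of all genes tested were called. They numbered 16 in the lower and 0 in the higher cluster (edgeR, 7 at an unadjusted p under 0.05). In these clusters 34.1% and 0.43% of all genes tested were called. They numbered 4 at 10 to 40 days and 0 at 45 to 80 days, where 7.09% and 0.00618% of all genes were called. Those called for the interaction numbered 1 with spike-in library sizes and 51 by limma-voom, where 6.34% and 23.5% of all genes tested were called. They numbered 49 without the 3 shallowest libraries, 49 with the spike-in ratio as a covariate and 7 in the lower cluster. Of all genes tested 15.2%, 14.6% and 3.61% were called in these 3 settings. Genes within the reference limits numbered 0 with spike-in library sizes, 45 without the 3 shallowest libraries, 5 with stricter limits on sex and age, and 68 with looser ones. Leaving out each library in turn gave 91 to 103 members called for sex, 44 to 59 for age in males, 26 to 44 for age in females, 24 to 44 for the interaction and 23 to 34 within the reference limits. The slope of APZ42_021746 in females turned to -0.07566 with spike-in library sizes. The cause of these changes was not tested; clusters and age ranges hold fewer libraries.

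Whether replicate numbers pair samples is not stated in the labels. Libraries with the same number had deviations correlated from -0.808 to 0.89 (median -0.00921). For libraries with different numbers the correlations ran from -0.848 to 0.869 (median -0.000468). Whether libraries with the same number share a batch was not tested. With a replicate block 97 members were called for sex, 51 for age in males and 26 for age in females. The interaction was called for 42, of which 39 had the male slope above and 3 below. Of all genes tested 67.1%, 31.4%, 39.4% and 12.4% were called in these 4 fits. With this block 27 members met the reference limits. Directions of the calls for sex also changed with DESeq2 (69 higher, 37 lower in males), without the 7 abundant genes (58 and 43) and with log2 library size as a covariate (57 and 45). In females, log2 library size as a covariate gave 7 rising and 17 falling members and the spike-in ratio as a covariate 16 and 17. For the interaction, the male slope was above the female one for 46 members and below for 3 with the spike-in ratio as a covariate, and for 39 and 3 without the 7 abundant genes. Fits without 1 library reused the genes tested and the trended dispersion of the reported fits. Counting noise made up a median of 9.55% of a member's variance, and at most 19.8%.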

Other observations

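The 3 libraries marked as mislabelled and excluded in the labels were not used to choose the members, and they are given as single libraries without a group. They held 11624900, 17556442 and 24775203 gene counts. The median absolute deviation of the members from their means over the 76 libraries was 0.152, 0.109 and 0.133 log2 units, against 0.318, 0.29 and 0.382 for the eligible genes. Within 0.5 of their means were 97%, 100% and 99.5% of the 200 members, against 66.5%, 71.6% and 61.1% of the eligible genes. APZ42_015882 deviated by -0.0264, -0.234 and -0.0474, APZ42_017914 by -0.137, -0.079 and -0.104, APZ42_031264 by 0.231, 0.0724 and 0.188, and APZ42_011833 by -0.207, -0.15 and 0.0674 in the same order of libraries.

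The 2 technical runs of the male sample of 10 days differed in the 7 abundant genes, which took 0.696% of the gene counts of one run and 40.6% of the other. Between these runs the members differed by a median of 0.155 log2 units, and 152 of 200 (76%) differed by at most 0.25. The eligible genes differed by a median of 0.256, and 49% of them by at most 0.25. Members ranged from -0.464 to 0.602 and eligible genes from -7.21 to 4.73. Both runs are labelled as the same male sample of 10 days, so by the labels these differences contain no sex or age. What else differed between the runs was not tested.

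A list of 200 genes chosen by the same rule from the 26 libraries with replicate number 1 was read in the other 50 libraries. Its median SD was 0.164 in the libraries that chose it and 0.248 in the others (0.135 to 0.398), against 0.395 and 0.478 for the eligible genes. In the 50 libraries 184 of the 200 genes were in the lowest 25% of SDs, 80 were among the 200 of smallest SD there, and 95 were members of the list from all 76 libraries. All 76 libraries had chosen the members, so these values describe another list and are no test of the members.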
